A study of Mus musculus with 19 samples.

Results

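Lipid droplet and lipolysis genes were followed through the first days of culture of mouse hepatic stellate cells (HSCs). The set was chosen by name and holds 10 genes of the 55487 in the count table: the droplet coat genes Plin2, Plin3, Plin4 and Plin5, the lipase genes Pnpla2, Lipe and Mgll, the desaturase gene Scd2, the fatty acid receptor gene Cd36 and the transcription factor gene Pparg. Of these, 8 had at least 1 count and 6 (Plin2, Plin3, Pnpla2, Mgll, Scd2 and Cd36) passed the filter on low counts, beside 15138 genes in all. The other 4 were not tested, and their counts are given.

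The 19 samples were HSCs of male Balb/c mice, healthy and 23 to 24 weeks old, sorted by ultraviolet positivity, which depends on the vitamin A the cells hold. Cells collected without culture (0 h) formed one group of 2 samples. The other groups had been on collagen-coated plates in DMEM with 10% fetal bovine serum for 3, 6, 12, 18 or 96 h (3 samples each) or 24 h (2 samples), with fresh medium at 3 h and 24 h. No group carried a transgene or received a drug, so that time, plate and serum came together in every culture. Each sample pools 2 technical repeats and carries in its labels a number (1, 2 or 3, here the replicate) and an isolation date. Replicates 1 and 3 share a date at all times and replicate 2 has another, the samples at 0 h are replicates 2 and 3, and those at 24 h replicates 1 and 2. Libraries were 3′ tag libraries, in which a transcript gives reads near its end, and levels are CPM, read counts relative to a library total scaled by TMM. A gene was called where edgeR's quasi-likelihood test gave an adjusted p under 0.1 and a fold over 2.

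HSCs are the vitamin A stores of the liver and keep retinyl esters together with triglycerides in large cytoplasmic droplets, which shrink and disappear as the cells turn into myofibroblasts in culture. Perilipins coat a droplet and limit the access of lipases to it. Lipolysis then proceeds in steps, in which adipose triglyceride lipase (Pnpla2) removes a first fatty acid, hormone-sensitive lipase (Lipe) acts on the diglyceride and monoglyceride lipase (Mgll) on the last ester bond. Pparg is best known as the master factor of fat cell formation and has perilipin and Cd36 genes among its targets there.

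The labelled cell type was checked against its markers. All 10 HSC markers (Lrat, Reln, Des, Dcn and others) had counts at every time, with a summed level of 31780 to 36870 CPM at 0 h and 2813 to 3176 CPM at 96 h. Over the same times the sum of 10 hepatocyte genes went from between 3436 and 7004 CPM to between 28.1 and 87.8 CPM, that of 10 Kupffer cell and leukocyte genes from 412 to 451 CPM to 23.3 to 46.2 CPM, and that of 9 sinusoidal endothelial genes from 726 to 1066 CPM to 10.3 to 165 CPM, with up to 3325 CPM at 3 h. Of 7 adipocyte genes, 6 (Adipoq, Plin1, Cidec, Lep, Retn and Cfd) had no count in any sample. Library totals lay between 2073171 and 7690892 counts, and 3 counts, taken as the smallest level a library could show, corresponded to 0.386 to 1.51 CPM. In bulk RNA, fewer cells of a type and less RNA per cell cannot be told apart.

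Plin2, Plin3 and Mgll, each called lower at 12 h than at 0 h, are shown with the DNA around their transcription starts, from 250 bases before to 50 bases after the start (RefSeq, GRCm38.p6). Capitals mark 3 short motifs searched on both strands: the E-box CACGTG, the CCAAT box (CCAAT) and the GC box (GGGCGG). A match is given as letters found and not as a binding site.
Plin2, chr4:86670010-86670309, minus strand: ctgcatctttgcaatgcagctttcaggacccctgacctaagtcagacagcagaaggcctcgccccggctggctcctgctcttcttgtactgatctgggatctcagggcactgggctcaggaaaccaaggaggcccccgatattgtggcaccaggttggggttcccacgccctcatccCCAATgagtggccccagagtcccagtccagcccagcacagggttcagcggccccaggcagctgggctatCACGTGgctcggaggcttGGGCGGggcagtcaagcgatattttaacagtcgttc
Plin3, chr17:56290462-56290761, minus strand: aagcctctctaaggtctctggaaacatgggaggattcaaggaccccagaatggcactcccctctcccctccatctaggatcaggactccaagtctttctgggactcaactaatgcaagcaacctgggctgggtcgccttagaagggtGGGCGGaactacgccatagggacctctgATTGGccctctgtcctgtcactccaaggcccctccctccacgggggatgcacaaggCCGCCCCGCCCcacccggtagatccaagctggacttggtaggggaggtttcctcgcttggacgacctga
Mgll, chr6:88724162-88724461, plus strand, the first of 2 starts listed: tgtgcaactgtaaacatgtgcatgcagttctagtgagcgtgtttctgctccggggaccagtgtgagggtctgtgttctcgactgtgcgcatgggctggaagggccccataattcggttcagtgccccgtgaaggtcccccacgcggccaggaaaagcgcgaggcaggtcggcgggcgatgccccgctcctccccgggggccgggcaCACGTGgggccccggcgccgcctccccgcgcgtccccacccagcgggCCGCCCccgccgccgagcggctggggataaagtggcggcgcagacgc
The Plin2 window held 1 match to each motif, with the E-box beginning 4 bases before the start. Plin3 had 3 GC boxes, of which 2 overlap by 1 base, and a CCAAT box on the other strand. Its window lies wholly inside the GENCODE interval of the gene (chr17:56277476-56292873), so that this start is not the outermost one annotated there. The Mgll window held an E-box beginning 44 bases before the start and 1 GC box. In all 32851 promoters of the same length, 7.15% held the E-box, 37.4% the CCAAT box and 35.7% the GC box. The table had a promoter for 9 of the 10 genes, without Scd2.

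Plin2 (ENSMUSG00000028494, GRCm38 chr4:86648386-86670060, minus strand) encodes the main droplet coat protein outside fat cells. Its level fell by 12 h, was lowest at 18 h and rose again by 96 h. The samples at 0 h had 198 and 208 CPM, those at 3 h 115, 192 and 201 CPM, and those at 6 h 43.5, 108 and 128 CPM. At 12 h the level was 21.6, 57.2 and 72.9 CPM, at 18 h 22.2, 30.5 and 39.8 CPM, and at 24 h 48.1 and 55.1 CPM. At 96 h it was 229, 283 and 287 CPM. All 8 samples from 12 to 24 h lay below all 8 samples of 0, 3 and 96 h, and the highest of the former (72.9 CPM) was below the lowest of the latter (115 CPM).

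Against 0 h (203 ± 6.73 CPM, SD, n = 2), Plin2 had a log2 fold change of -2.01 (SE 0.46) at 12 h, when the mean was 50.6 ± 26.3 CPM (n = 3, edgeR, adjusted p = 0.00697). At 18 h (30.9 ± 8.84 CPM, n = 3) the log2 fold change was -2.72 (SE 0.47, edgeR, adjusted p = 0.000842), and at 24 h (51.6 ± 5.01 CPM, n = 2) it was -1.98 (SE 0.53, edgeR, adjusted p = 0.0285). Neither 3 h (-0.26, adjusted p = 0.896) nor 6 h (-1.13, adjusted p = 0.153) passed in edgeR. The calls at 12 h and 18 h stood in all 27 alternatives that refitted the data, with an adjusted p of at most 0.0595 and 0.00946. The call at 24 h was lost without replicate 2 of 0 h (adjusted p = 0.101), without replicate 1 of 24 h (0.200) and without replicate 2 of 24 h (0.159), in edgeR, with a range of 0.000715 to 0.200 over the alternatives. Within replicate numbers, the culture at 12 h differed from the fresh cells by -1.51 (replicate 2) and -3.17 (replicate 3) on the log2 scale, and at 18 h by -2.75 and -2.30.

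The later rise of Plin2 from 12 to 96 h had a log2 fold change of 2.40 (SE 0.44, edgeR, adjusted p = 0.00148) and from 18 to 96 h it was 3.11 (SE 0.45, edgeR, adjusted p = 0.000323), both called in all 27 alternatives, beside 13.5% and 9.63% of all genes tested in either direction (6.96% and 5.11% higher). From 24 to 96 h it was 2.37 (SE 0.51, edgeR, adjusted p = 0.0206), a call lost without either sample of 24 h (adjusted p = 0.189 and 0.236 in edgeR, range 5.29e-05 to 0.236). The 3 samples at 96 h all exceeded both samples at 0 h, yet the difference of 0.39 (SE 0.47) on the log2 scale did not pass the test (edgeR, adjusted p = 0.709).

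**Figure D1:**
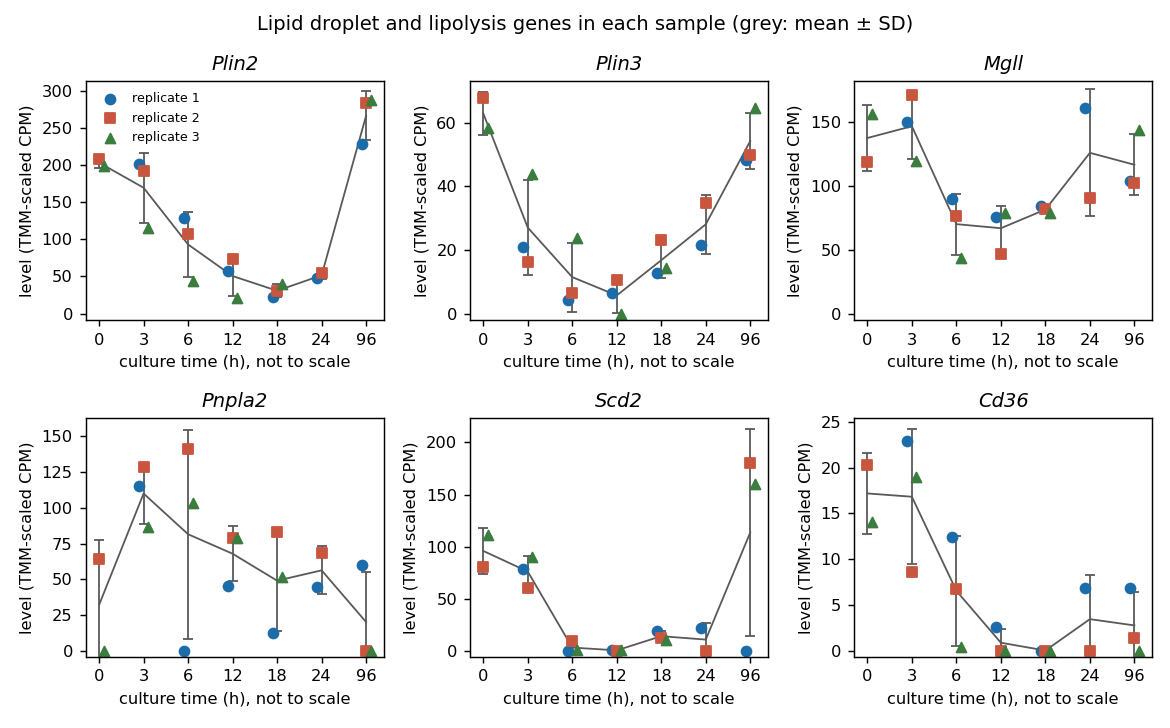
Level of the 6 genes tested in each of the 19 samples (y axis, TMM-scaled CPM) against culture time in hours (x axis, evenly spaced and not to scale); symbols give the replicate number, and the grey line and bars the mean and SD of each group (n = 2 at 0 and 24 h, otherwise 3). Plin2 falls from about 200 CPM to a low at 18 h and stands at 229 to 287 CPM at 96 h, Plin3, Mgll and Scd2 are lowest at 12 h, and single samples of Pnpla2 and Scd2 sit at 0 beside others of the same group far above 0.

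Plin3 (ENSMUSG00000024197, GRCm38 chr17:56277476-56292873, minus strand) encodes a coat protein that moves from the cytosol onto small and nascent droplets. Its mean also fell and rose again and was lowest at 12 h, while that of Plin2 was lowest at 18 h. Between 12 and 18 h neither gene was called (edgeR, adjusted p = 0.687 for Plin3 and 0.612 for Plin2). Freshly sorted cells had 58.2 and 67.7 CPM, and the cultures at 3 h had 16.3, 20.9 and 44.0 CPM. At 6 h the samples had 4.15, 6.36 and 23.9 CPM, and at 12 h 0, 6.49 and 10.7 CPM. Every culture from 3 to 24 h lay below both fresh samples. From 18 h the level was higher again, at 12.9, 14.3 and 23.2 CPM, then 21.5 and 34.7 CPM at 24 h and 48.5, 49.9 and 64.5 CPM at 96 h. The ranges of 24 h and 96 h did not overlap, and that of 96 h overlapped the range of 0 h.

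At 12 h (5.72 ± 5.38 CPM, n = 3) Plin3 was called lower than at 0 h (63.0 ± 6.68 CPM, n = 2), with a log2 fold change of -3.46 (SE 1.17, edgeR, adjusted p = 0.0622). With the replicate number as a block the call was lost (log2 fold change -3.21, edgeR, adjusted p = 0.124). It was also lost without replicate 3 of 0 h (adjusted p = 0.132), replicate 2 of 0 h (0.166) or replicate 1 of 12 h (0.125), and in a fit of the 2 groups alone (0.243), and the range over all alternatives was 0.00324 to 0.243 in edgeR and DESeq2. The increase from 12 to 96 h had a log2 fold change of 3.25 (SE 1.11, edgeR, adjusted p = 0.0767). This call too was lost with the block (adjusted p = 0.118) and without replicate 1 of 12 h (0.147) or any one sample of 96 h (0.119 to 0.156), and in a fit of the 2 groups (0.160), with a range of 0.00369 to 0.160 over the alternatives in edgeR and DESeq2. Over all 7 times together Plin3 did not pass (edgeR, adjusted p = 0.199), while Plin2 had an adjusted p of 0.00033 in edgeR, where 27.4% of all genes passed.

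The remaining 2 perilipins in the set were all but unread. Plin5, which tethers droplets to mitochondria in oxidative tissues, had 0 counts in all 19 samples, which allows at most 0.386 to 1.51 CPM per library. Such floors, and folds given as at least a value, cover counting error only, and whether a 0 arose in the authors' assembly or counting was not tested. Plin4, a coat protein of fat and muscle cells, had 12 counts in replicate 3 at 12 h (1.60 CPM) and 0 in the other 18 samples. Its annotated end overlaps the gene Hdgfl2 on the opposite strand by 17 bases, and the strand setting of the counting is not given in the sources used here.

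**Figure D2:**
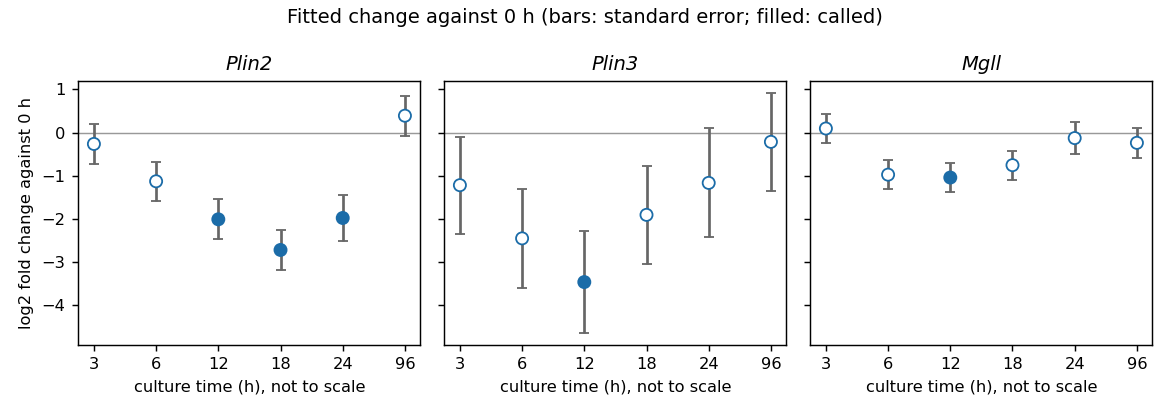
Fitted log2 fold change against 0 h (y axis) of Plin2, Plin3 and Mgll at each culture time in hours (x axis, not to scale); bars give the standard error, and filled points passed the call in edgeR. Plin2 is filled at 12, 18 and 24 h, Plin3 and Mgll at 12 h, and at 96 h all 3 lie at 0.39 or less from the horizontal line of no change.

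Of the lipase genes, Mgll was called in edgeR in at least 1 of the 21 pairs of times, Pnpla2 was not, and Lipe was not tested. Mgll (ENSMUSG00000033174, GRCm38 chr6:88724412-88828360, plus strand) had 119 and 156 CPM at 0 h and 119, 150 and 171 CPM at 3 h. At 6 h it had 43.5, 76.4 and 89.9 CPM, at 12 h 46.3, 75.5 and 78.3 CPM, and at 18 h 78.8, 81.4 and 83.8 CPM. All 9 samples from 6 to 18 h lay below all 5 earlier ones. At 24 h the samples were apart, at 90.6 and 161 CPM, and at 96 h they had 102, 104 and 144 CPM.

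Between 3 and 6 h Mgll fell by 1.07 on the log2 scale (SE 0.31, edgeR, adjusted p = 0.0722). This was the only call of edgeR in the set between consecutive times up to 24 h. This call was lost without replicate 1 (adjusted p = 0.161) or 2 (0.197) of 3 h or replicate 3 of 6 h (0.252), in a fit of the 2 groups (0.112), without the filter on low counts (0.112) and on library size only (log2 fold change -0.95, adjusted p = 0.112), with a range of 0.00427 to 0.252 over the alternatives in edgeR and DESeq2. Against 0 h (137 ± 26.03 CPM, n = 2) the log2 fold change at 6 h was -0.97 (edgeR, adjusted p = 0.092), just under the limit on fold, and with the replicate number as a block it was -1.05 and was called (edgeR, adjusted p = 0.0847, range 0.00942 to 0.393). At 12 h (66.7 ± 17.7 CPM, n = 3) it was -1.04 (SE 0.34, edgeR, adjusted p = 0.052) and was called, though not without replicate 3 of 0 h (adjusted p = 0.278) or replicate 2 of 12 h (0.162), in a fit of the 2 groups (0.101), or on library size only, where the log2 fold change of -0.95 was under the limit (adjusted p = 0.0767), within a range of 0.00384 to 0.278. By 96 h the difference from 0 h was -0.24 (SE 0.34, edgeR, adjusted p = 0.774). The gene overlaps 5 annotated genes, of which the most read had 217 counts in the 19 samples together.

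Pnpla2 (ENSMUSG00000025509, GRCm38 chr7:141455198-141460743, plus strand), the gene of the enzyme that starts triglyceride lipolysis, showed no call in any of the 21 pairs and did not pass over all times (edgeR, adjusted p = 0.939). Freshly sorted cells had 0 and 64.2 CPM, and at 3 h the level was 86.5, 115 and 128 CPM. At 6 h the samples had 0, 103 and 141 CPM, and at 96 h 0, 0 and 60.2 CPM. The 8 samples of 12, 18 and 24 h ranged from 12.2 to 83.0 CPM. Replicate 3 at 0 h had no count and replicate 2 had 256, and replicate 1 at 6 h had no count where the others had 566 and 710.

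Such zeros were uncommon at this level. Pnpla2 was at 0 in 4 of 19 samples, and of 1256 genes with a mean within 1.25-fold of its own, 49 (3.9%) had as many zeros or more. For Scd2, also with 4 samples at 0, this held for 88 of 1379 genes (6.38%). Among all 1824 genes with a mean of 50 to 100 CPM, 16% had at least 1 sample at 0. The cause of these zeros was not tested. Where they lie in the groups, the errors were wide: the standard error of the log2 fold change of Pnpla2 at 96 h against 0 h was 1.96, against 0.47 for Plin2.

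**Figure D3:**
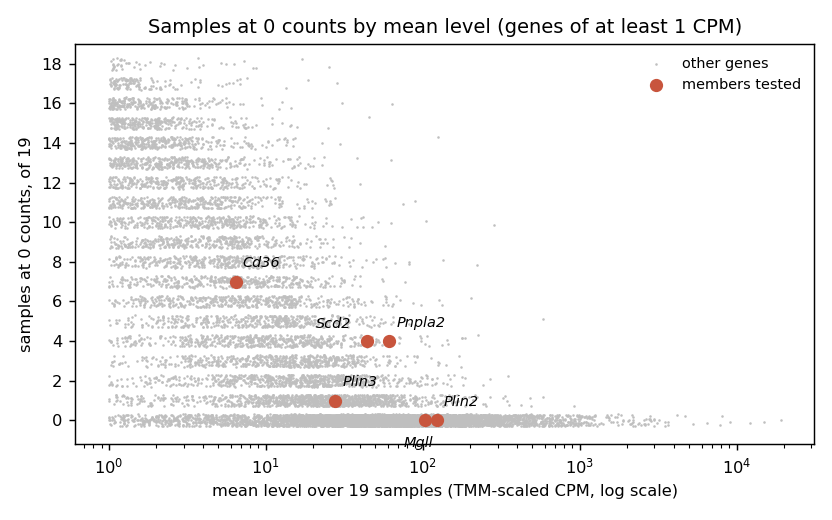
Number of the 19 samples with 0 counts (y axis; grey points are spread vertically by up to 0.3 of a sample) against the mean level over the samples (x axis, TMM-scaled CPM, log scale) for all genes whose mean was 1 CPM or more. The 6 genes tested are marked in red; Pnpla2 and Scd2, each with 4 samples at 0, lie to the right of most genes with as many, and Plin2 and Mgll have none.

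Lipe, which encodes hormone-sensitive lipase, was read in 1 sample. Replicate 2 at 96 h had 120 counts (23.1 CPM), and the other 18 samples had 0. The other samples at 96 h were among those at 0. The gene did not pass the filter, and a value seen in 1 of 19 libraries supports no comparison.

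Scd2 (ENSMUSG00000025203, GRCm38 chr19:44293674-44306864, plus strand) encodes a stearoyl-CoA desaturase that makes the monounsaturated fatty acids stored in esters. The samples at 0 h had 80.5 and 111 CPM and those at 3 h 60.2, 78.6 and 90.0 CPM. At 6 h the level was 0, 0.913 and 9.35 CPM, and at 12 h 0, 1.07 and 1.16 CPM. All 6 samples of 6 and 12 h thus lay far below the 5 samples before them. At 18 h there were 10.8, 12.6 and 19.5 CPM, at 24 h 0 and 22.1 CPM, and at 96 h 0, 161 and 181 CPM, so that the samples of 96 h held a 0 beside the highest levels of the gene.

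At 12 h Scd2 was called lower than at 0 h, with a log2 fold change of -6.98 (SE 2.15, edgeR, adjusted p = 0.0396). The mean fell from 96.0 ± 21.9 CPM (n = 2) to 0.742 ± 0.644 CPM (n = 3), the latter close to the floor of the libraries, so that the size of the fold is loosely set. The increase from 12 to 96 h (114 ± 99.0 CPM, n = 3) had a log2 fold change of 7.23 (SE 2.12, edgeR, adjusted p = 0.0377). The call at 12 h was lost without replicate 3 (adjusted p = 0.103) or replicate 2 of 12 h (0.120), within a range of 0.00166 to 0.120. The call from 12 to 96 h was lost without the same samples (0.109 and 0.125), within a range of 0.000389 to 0.125 in edgeR and DESeq2. Over all 7 times Scd2 passed (edgeR, adjusted p = 0.0779), as did Mgll (edgeR, adjusted p = 0.0431).

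Cd36 (ENSMUSG00000002944, GRCm38 chr5:17781690-17888801, minus strand), the gene of a surface receptor that takes up long-chain fatty acids, was read in fresh cells and early cultures, and rarely later. It had 14.1 and 20.3 CPM at 0 h, 8.63, 18.9 and 22.9 CPM at 3 h, and 0.365, 6.76 and 12.5 CPM at 6 h. From 12 h on, 7 of 11 samples were at 0, among them all 3 at 18 h, and the highest of the 11 had 6.88 CPM. At 18 h Cd36 was at least 28.4-fold lower than at 0 h (17.2 ± 4.42 CPM, n = 2), with the zeros set at 3 counts per library (edgeR, adjusted p = 0.0634). This call was lost without either sample of 0 h (adjusted p = 0.108 and 0.127) and without replicate 1 (0.135), replicate 3 (0.138) or replicate 2 (0.147) of 18 h, in a range of 0.00441 to 0.147 over edgeR and DESeq2. At 12 h the gene was not called (edgeR, adjusted p = 0.274) but was with the replicate number as a block (log2 fold change -7.41, edgeR, adjusted p = 0.0688, range 0.0688 to 0.505). Cd36 is also a gene of endothelial cells and macrophages, and the summed endothelial markers went from 726 to 1066 CPM at 0 h to 145 to 535 CPM at 18 h and the Kupffer cell and leukocyte markers from 412 to 451 CPM to 32.2 to 53.6 CPM; their part in the fall of Cd36 was not tested.

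Pparg had 0 counts in all 19 samples. The annotated gene (ENSMUSG00000000440, GRCm38 chr6:115360951-115490399, plus strand) overlaps 1 antisense gene, which also had 0. A level under the floor of the libraries was not detectable at this depth.

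Set side by side, the tested genes were called as follows. At 3 h against 0 h 0 of the 6 were called (0 at an unadjusted p under 0.05, 0 with DESeq2), while edgeR called 5.58% of all genes tested. At 6 h edgeR called 0 of them (11.3% of all genes), although 4 (Plin2, Plin3, Mgll and Scd2) had an unadjusted p under 0.05 and were called lower by DESeq2. The shares of all genes given here are those of edgeR calls. The shares with DESeq2 or at an unadjusted p were not counted. At 12 h 4 were called lower (Plin2, Plin3, Mgll and Scd2; 17.7% of all genes in either direction, 9.1% lower), at 18 h 2 (Plin2 and Cd36; 15.9%, 8.21% lower) and at 24 h 1 (Plin2; 9.51%, 3.86% lower). At 96 h 0 were called (0 at an unadjusted p under 0.05 and 0 with DESeq2), beside 10.9% of all genes. In edgeR, no gene of the set was called higher than at 0 h at any time.

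Calls between culture times differed with the pair. From 3 to 6 h edgeR called 1 gene (Mgll, lower; 4.49% of all genes, 1.99% lower). DESeq2 called Mgll and also Scd2 lower over this step (Scd2 log2 fold change -4.65, DESeq2, adjusted p = 0.0585). From 6 to 12 h, 12 to 18 h and 18 to 24 h edgeR and DESeq2 called 0, with 0, 1 and 1 genes at an unadjusted p under 0.05 and 1.84%, 0.225% and 0.0396% of all genes called. From 24 to 96 h 1 was called (Plin2, higher; 2.72%, 1.37% higher), and from 12 to 96 h 3 (Plin2, Plin3 and Scd2, higher; 13.5%, 6.96% higher). Further apart, edgeR called 3 genes lower at 12 h than at 3 h (Plin2, Mgll and Scd2; 7.9% of all genes lower), 2 at 18 h than at 3 h (Plin2 and Cd36; 8.28%), 1 at 24 h than at 3 h (Plin2; 5.15%) and 1 at 18 h than at 6 h (Plin2; 2.99%). It called 1 higher at 96 h than at 6 h (Plin2; 5.76%). DESeq2 called 4 lower at 12 h than at 3 h, with Plin3 added, and 3 at 18 h than at 3 h, with Mgll added. At 18 h against 6 h it called 2 lower, with Cd36 added. At 96 h DESeq2 called 3 higher than at 6 h, with Plin3 and Scd2 added, and 2 higher than at 18 h (Plin2 and Cd36).

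The calls of Plin2 at 12 h (log2 fold change -1.74, edgeR, adjusted p = 0.0126) and 18 h (-2.45, edgeR, adjusted p = 0.00133) against 3 h stood in all 27 alternatives. That at 24 h (-1.71, edgeR, adjusted p = 0.0428) was lost without replicate 1 of 3 h (0.101), replicate 1 of 24 h (0.281) or replicate 2 of 24 h (0.232). Against 6 h, the call of Plin2 at 18 h (-1.59, edgeR, adjusted p = 0.0528) was lost without replicate 1 or 2 of 6 h (0.190 and 0.127) or of 18 h (0.182 and 0.141) and in a fit of the 2 groups (0.148), and that at 96 h (1.52, edgeR, adjusted p = 0.0275) without replicate 3 of 6 h (0.104). Mgll at 12 h against 3 h (-1.13, edgeR, adjusted p = 0.0238) was lost without replicate 2 of 12 h (0.110) and on library size only, where its log2 fold change was -0.98. Scd2 at 12 h against 3 h (-6.65, edgeR, adjusted p = 0.0485) was lost without any one sample of 12 h (0.109 to 0.144), and Cd36 at 18 h, at least 27.8-fold lower than at 3 h (edgeR, adjusted p = 0.0608), without replicate 1 of 3 h (0.105) or any one sample of 18 h (0.136 to 0.142).

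When the 7 times were ordered by the mean level of each of the 6 genes, none of the 36 pairs of neighbours was called by edgeR or DESeq2. None had an unadjusted p under 0.05 in edgeR, and 4 had ranges that did not overlap (Plin2 at 96 and 0 h, Plin3 at 96 and 24 h, Mgll at 96 and 18 h, Scd2 at 3 and 18 h). The share of such pairs over all genes was not counted, so that this count shows nothing particular to the set.

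By their means over the 7 times, the genes most like Plin2 among 8582 compared were Ndrg2 (Pearson r = 0.990), Chd3 (r = 0.989) and Cyp26b1 (r = 0.988). Chd3 is a chromatin remodeller and Cyp26b1 an enzyme that breaks down retinoic acid. The 7 points share the same libraries, and the values describe only a likeness of course. Pparg, at 0 throughout, has no course to compare.

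The genes around the set were described by 7 lists of lipid metabolism with 113 further genes, of which 93 were tested. At 12 h 8 of them were called higher and 18 lower than at 0 h, together 28%, beside 17.7% of all genes. With the size factors of DESeq2 the split was 5 and 22. With those factors all genes went from 1302 higher and 1378 lower to 1033 and 1615. The median log2 fold change of the 93 genes was -0.89, against 0 for all genes tested. At 3 h the list calls were 5 higher and 5 lower (10.8%, beside 5.58% of all genes). At 6 h they were 3 and 8 (11.8%, beside 11.3%), and at 18 h 4 and 17 (22.6%, beside 15.9%). At 24 h they were 2 and 7 (9.68%, beside 9.51%), and 5 and 7 when scaled on library size only. That scaling took all genes at 24 h from 856 higher and 584 lower to 1249 and 499. At 96 h the list calls were 9 and 8 (18.3%, beside 10.9%), and 6 and 11 with the size factors of DESeq2. Those factors took all genes at 96 h from 882 higher and 762 lower to 728 and 886. From 12 to 96 h 15 of the 93 were called higher and 9 lower (25.8%, beside 13.5%). At 6 h and 24 h the share in the lists was thus near that of all genes. Leaving out replicate 3 of 0 h brought the calls to 4 of the 93 at 3 h, to 16 at 12 h and to 8 at 96 h, and leaving out replicate 2 of 24 h brought those at 24 h to 4. The share of all genes called in refits without a sample was not counted, here or for the single lists below. Whether these drops are particular to the lists is thus not known.

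**Figure D4:**
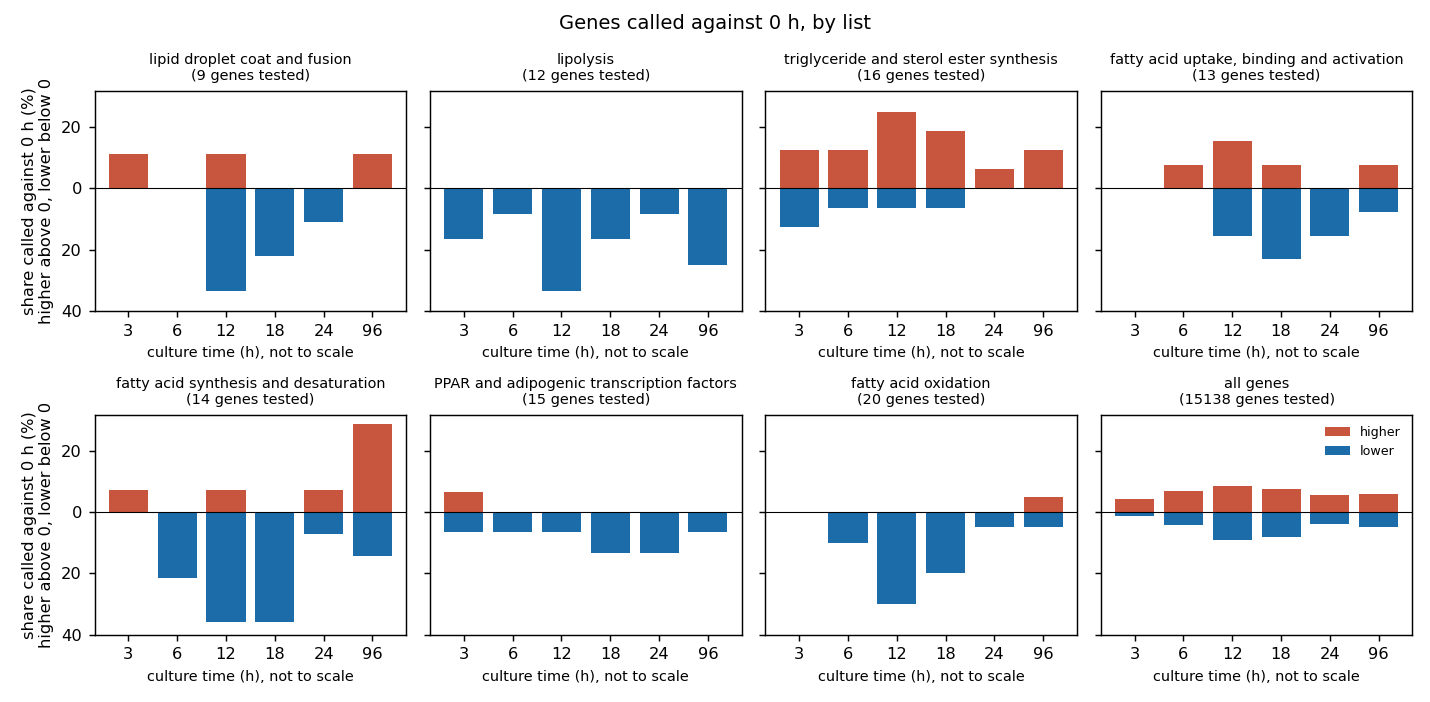
Share of the tested genes of each lipid list, and of all genes, called higher (red, upwards) or lower (blue, downwards) than at 0 h (y axis, percent) at each culture time in hours (x axis, not to scale); the lists include the genes of the set. At 12 h the lower share exceeds 30% in droplet coat genes, lipolysis genes and fatty acid synthesis genes, against 9.1% of all genes, while 4 of 16 triglyceride and sterol ester synthesis genes are called higher and 1 lower.

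In the list of lipolysis genes, 4 of 12 tested (G0s2, Lipa, Ces1d and Mgll) were called lower at 12 h and 0 higher, where 9.1% of all genes were called lower. Without replicate 3 of 0 h the count was 1, and that of the droplet coat list was also 1 in place of 4, with the share of all genes in that refit not counted. Ces1d, a carboxylesterase of hepatocytes, had 17.1 and 68.8 CPM at 0 h and at most 0.597 CPM in the cultures, while the summed hepatocyte markers went from between 3436 and 7004 CPM to between 86.2 and 165 CPM at 12 h, and their part in this call was not tested. G0s2, a small protein that inhibits adipose triglyceride lipase, fell from 323 ± 49.4 CPM (n = 2) at 0 h to 20.9 ± 9.42 CPM (n = 3) already at 3 h, and the samples of 0 h, at 288 and 358 CPM, lay above all 17 cultures. Its log2 fold change was -5.32 at 12 h (SE 0.74, edgeR, adjusted p = 0.000107) and still -4.64 at 96 h (SE 0.72, edgeR, adjusted p = 0.000441). The summed hepatocyte markers were already down to between 435 and 1253 CPM at 3 h, and their part in the fall of G0s2 was not tested. Lipa, the lysosomal acid lipase, was also low in between, from 54.6 CPM at 0 h to 13.4 CPM at 12 h (log2 fold change -2.03, edgeR, adjusted p = 0.0258) and 53.7 CPM at 96 h. Pnpla8, a mitochondrial phospholipase, was called at 96 h against 12 h, with a log2 fold change of -1.60 (edgeR, adjusted p = 0.0163).

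Of 14 fatty acid synthesis and desaturation genes tested, 5 (Scd1, Scd2, Fads1, Fads2 and Elovl3) were called lower and 1 (Fasn, fatty acid synthase) higher at 12 h, beside 9.1% and 8.6% of all genes. This count of 6 was 3 without replicate 2 of 12 h. From 12 to 96 h 6 were called higher and 0 lower, beside 6.96% and 6.57% of all genes. At 96 h against 0 h 4 were called higher and 2 lower, beside 5.83% and 5.03% of all genes. Without replicate 3 of 0 h 2 were called at 96 h in place of 6. Ces1d, Fads2, Elovl3 and Fasn are named here after their values were seen, to complete the counts. Scd1, the sister gene of Scd2, had 31.0 ± 6.89 CPM at 0 h, 0.499 ± 0.435 CPM at 12 h and 29.3 ± 18.8 CPM at 96 h, and rose from 12 to 96 h by a log2 fold change of 5.81 (SE 1.70, edgeR, adjusted p = 0.037). Fads1, the delta-5 desaturase of polyunsaturated fatty acids, went from 111 CPM at 0 h to 23.0 CPM at 12 h (log2 fold change -2.26, edgeR, adjusted p = 0.000545) and 103 CPM at 96 h. Elovl6, which elongates palmitate, had 5.65 CPM at 0 h and was called higher already at 3 h (43.1 CPM, log2 fold change 2.94, edgeR, adjusted p = 0.0576). It had 7.75 CPM at 12 h and was called higher than at 0 h again at 96 h (35.2 CPM, log2 fold change 2.65, edgeR, adjusted p = 0.0561).

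**Figure D5:**
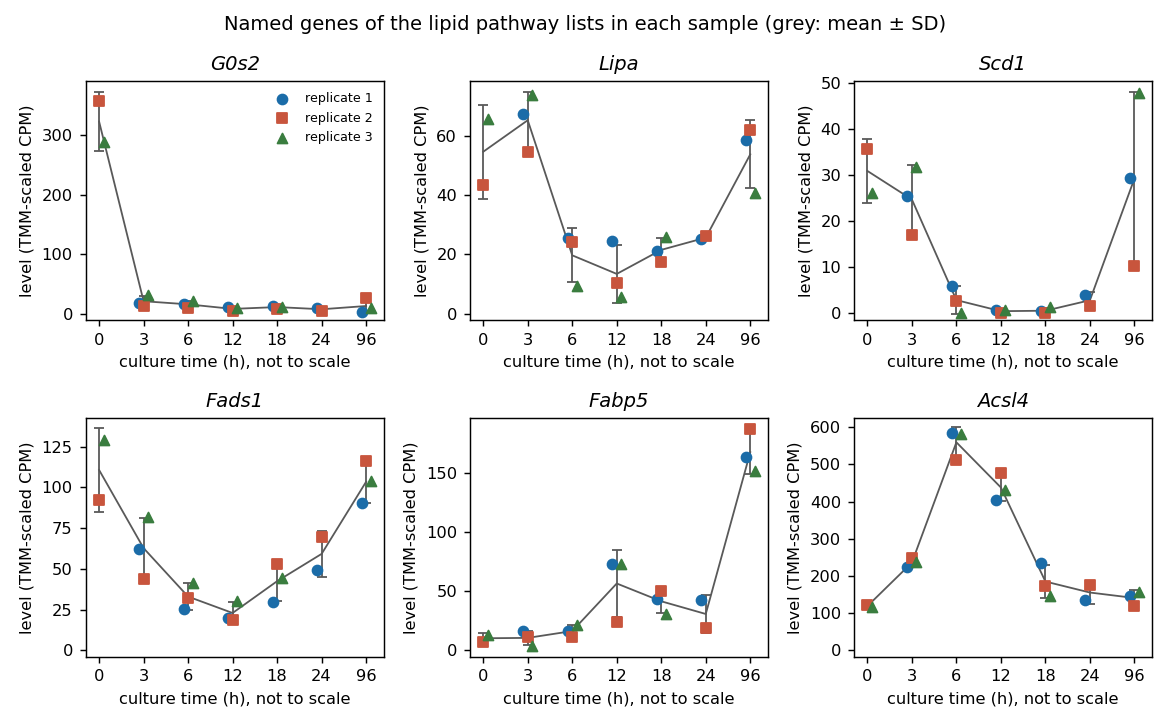
Level of 6 genes of the lipid lists outside the set in each sample (y axis, TMM-scaled CPM) against culture time in hours (x axis, not to scale), with symbols, line and bars as in the plot of the set's own levels. G0s2 drops by 3 h and stays low, Lipa, Scd1 and Fads1 are low from 6 to 24 h and high again at 96 h, Fabp5 is highest at 96 h, and Acsl4 is highest at 6 h.

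Fatty acid handling and ester synthesis genes moved in both directions. Acsl4, which activates arachidonate-like fatty acids, rose from 119 ± 3.97 CPM at 0 h (n = 2) to 560 ± 41.8 CPM at 6 h (n = 3, log2 fold change 2.24, edgeR, adjusted p = 8.14e-06) and was at 141 CPM at 96 h. Fabp5, a fatty acid carrier, rose from 10.0 CPM to 56.4 CPM at 12 h and 167 CPM at 96 h (log2 fold change 4.07, SE 0.71, edgeR, adjusted p = 0.00122). Of 16 ester synthesis genes tested, 4 were called higher and 1 lower at 12 h, beside 8.6% and 9.1% of all genes, and without replicate 2 of 0 h 2 were called in place of 5. Lpin3, a phosphatidate phosphatase, had 0 counts in both samples of 0 h and was at least 57.3-fold higher at 12 h, and Gpat3, which acylates glycerol phosphate, went from 3.26 to 44.3 CPM. Aup1, a droplet-surface protein, had 37.0 CPM at 0 h and was called higher at 12 h (87.7 CPM) and 96 h (96.4 CPM).

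Fatty acid oxidation genes were called only lower up to 24 h, 6 of 20 at 12 h, beside 9.1% of all genes lower. Without replicate 1 of 12 h, 3 were called. Acaa2, the last enzyme of the mitochondrial spiral, had 219 ± 26.2 CPM at 0 h, 2.56 ± 2.80 CPM at 12 h and 0 in all 3 samples at 18 h, then 60.1 ± 8.07 CPM at 96 h. Cpt1c, a carnitine acyltransferase relative, was at 0 in all samples of 12 and 18 h and at 41.2 ± 3.80 CPM at 96 h, at least 77.1-fold higher than at 12 h. Fabp1, the liver fatty acid carrier, is strongly read in hepatocytes, and its samples at 0 h differed widely (141 and 645 CPM) before it fell. The hepatocyte sum went, over the same times, from between 3436 and 7004 CPM to between 86.2 and 165 CPM at 12 h, and its part in this call was not tested.

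Of the partners of Pparg, Rxra, the shared partner of the PPAR receptors, had 171 and 219 CPM at 0 h. It fell to 74.8 ± 3.12 CPM at 3 h and 29.5 ± 6.88 CPM at 12 h (log2 fold change -2.73, SE 0.36, edgeR, adjusted p = 6.15e-05) and was at 112 ± 15.8 CPM at 96 h. Cebpd, an early factor of fat cell formation, had 749 CPM at 0 h, 1519 CPM at 3 h and 56.8 CPM at 96 h (log2 fold change -3.72, SE 0.50, edgeR, adjusted p = 0.000116). In this list of 15 tested genes 0 were called higher and 1 lower at 12 h, beside 8.6% and 9.1% of all genes. At 96 h the counts were 0 and 1, beside 5.83% and 5.03%. From 12 to 96 h 1 was called higher and 5 lower, beside 6.96% and 6.57% of all genes. Against 0 h, 3 were called at 12 h without replicate 2 of 18 h. At 96 h 2 were called without replicate 3 of 0 h. These lists were put together with earlier results of the same libraries known, so that their counts are descriptions.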

How the data were processed

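RNASeq was measured in 19 samples of HSCs in 7 groups, taken from the labels. The authors deposited raw counts per gene, whole numbers without normalization, from single-end 3′ tag reads mapped to GRCm38 with STAR and assembled with StringTie. The counting tool, its strand setting and the annotation release are not given in the sources used here. Each 3′ tag counts a transcript end, so that isoforms with another end can be missed. None of the columns was left out.

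Ensembl identifiers were matched to symbols (55141 of 55487) with GENCODE for GRCm38. Values were computed with R 4.3.3 and Python 3.11.15. With edgeR 4.0.16, genes were filtered by filterByExpr, scaled by TMM and fitted without covariates in one model of all samples, and each pair of times was tested with the quasi-likelihood F test and Benjamini-Hochberg adjustment over the 15138 genes (biological coefficient of variation 1.06). Genes were called at an adjusted p under 0.1 and a fold over 2. The SE of a log2 fold change is its size divided by the square root of F. DESeq2 1.42.0 was an alternative. Steps were tested on simulated data. Members and lists were chosen with earlier results of these data known. All 10 members are named. Of each list, genes called at 12 or 96 h with a mean of at least 10 CPM are named, at most the 3 with the largest change; 1 such gene is not reported here. The p-values measure the spread between these samples.

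Same-numbered samples share an isolation date by the labels, as do numbers 1 and 3. Residuals had a mean correlation of 0.0143 between same-numbered samples (51 pairs), -0.0162 between numbers 1 and 3 of one date (31 pairs) and -0.00311 between numbers of different dates (72 pairs). Since the date of replicate 2 holds 1 sample per time, no test was possible within it.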

Additional observations from a re-analysis of the deposited data

How the results depend on the processing

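The direction of each member's change against 0 h and its call were recomputed under another scaling, filter, tool and threshold, with the replicate number as a block (replicate block), with the isolation date as a covariate, after thinning, in fits of only the 2 groups compared, and without each sample. Scaling on library size only shifted all log2 fold changes by up to 0.27 (24 h) and the size factors of DESeq2 by up to -0.24 (18 h). At 6 h against 0 h, where edgeR called 0 members, 2 were called with the size factors of DESeq2, 1 with the replicate block, 2 after thinning and 4 with DESeq2. At 12 h 2 were called, in place of 4, at an adjusted p under 0.05 and in fits of the 2 groups alone. At 18 h these settings gave 1 and 4, in place of 2. From 3 to 6 h 0, in place of 1, were called at an adjusted p under 0.05, on library size only and without the filter, and 2 with DESeq2. From 12 to 96 h fits of the 2 groups gave 1, in place of 3. Other lipid genes called at 6 h numbered 20 with DESeq2, in place of 11, and at 24 h 18 with DESeq2 and 17 in fits of the 2 groups, in place of 9. The share of all genes called with DESeq2 or in fits of the 2 groups was not counted. The date changed no call of a member. The replicate block changed none against 0 h, or of those made between culture times, beyond those given for Plin3, Mgll and Cd36.

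Changes without a call that turned direction were Mgll at 24 h on library size only (0.15), Pnpla2 at 96 h with the date (0.0873) and Cd36 at 3 h after thinning (0.27) and in a fit of the 2 groups (0.0283). Leaving out single samples gave 2 to 4 members called at 12 h, 1 to 3 at 18 h, 0 to 1 at 24 h, 0 to 2 at 6 h and 0 to 1 at 96 h against 0 h, 0 to 1 from 3 to 6 h and 0 to 1 from 24 to 96 h. Other lipid genes called numbered 4 to 11 at 3 h, 16 to 29 at 12 h, 4 to 12 at 24 h and 8 to 19 at 96 h, with the lowest counts at 3, 12 and 96 h all without replicate 3 of 0 h. The shares of all genes called in these refits were not counted. Changes ran from -0.43 to 10.85 for Pnpla2 at 18 h, -0.19 to 11.08 at 24 h and -10.31 to 9.60 at 96 h, -0.60 to 0.23 for Mgll at 24 h and -0.0522 to 0.29 at 3 h, -0.29 to 0.32 for Cd36 at 3 h and -0.26 to 0.83 for Scd2 at 96 h. The largest values of Pnpla2 (10.85, 11.08, -10.31 and 9.60) arise where the sample left out leaves a group at 0 counts, so that their size depends on the prior count. The cause of the others was not tested. With 2 samples at 0 h and 24 h and a smallest library of 2073171 counts, changes of genes near 1.51 CPM could not be resolved.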
